A study of Homo sapiens with 6 samples.

Results

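Plasminogen activators and their inhibitors were followed in 6 RNA-seq libraries as a group of 9 genes, out of 25368 gene symbols in the tables. The genes were taken by symbol, and each of the 9 was found in both tables. They are PLAU, PLAT, PLAUR, SERPINB2, SERPINE2, A2M, TFPI2, F3 and THBD. The group was selected on measured values, with SERPINB2 leading because only JUN itself had a larger positive difference between JUN WT and control, so the SERPINB2 difference in that comparison is a description. A2M and the other genes were also chosen with earlier results of these data known. The cells were immortalized MRC5, a human embryonic lung fibroblast line, and every condition is a treatment of this 1 line. In the JUN overexpression table, MRC5 cells were infected with adenovirus carrying an empty vector, FLAG-tagged JUN WT or FLAG-tagged JUN AA, in which Ser63 and Ser73, the sites phosphorylated by JNK, are alanine. In the JNKi table, untreated MRC5 cells were sequenced beside iCAFs, made by 7 days in medium conditioned by MDA-MB-231 breast cancer cells, and iCAFs+JNKi, which were iCAFs given 1 µM of the JNK inhibitor JNK-IN-8 for 48 h, with DMSO as the vehicle of iCAFs. The conditioned medium was collected without serum, whereas the growth medium of MRC5 holds serum, and whether the MRC5 library was kept in serum is not given in the sources used here, so cancer cell factors and a possible difference in serum cannot be told apart in iCAFs.

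Plasmin is the protease that dissolves fibrin and helps to degrade the extracellular matrix. It is cut from plasminogen by urokinase, encoded by PLAU, and by tissue plasminogen activator, encoded by PLAT, and PLAUR encodes the surface receptor that holds urokinase on the cell. The activators are held in check by serpins, suicide inhibitors that trap their protease, among them the products of SERPINB2 and SERPINE2. A2M encodes a broad protease trap, TFPI2 a matrix-bound Kunitz inhibitor of plasmin, F3 tissue factor, which starts coagulation, and THBD thrombomodulin, which turns thrombin towards protein C. In fibroblasts, urokinase, its receptor and its inhibitors are known for pericellular proteolysis during migration and wound repair, and PLAU is a textbook target of AP-1, the dimer of which JUN is a subunit.

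Each condition has 1 library, so the differences below have no error estimate and carry no p-value. Values are FPKM (fragments per kilobase of exon per 1000000 mapped fragments), which allow levels of different genes to be compared within a library, and the read depth is unknown. Differences are log2(FPKM + 1), in which changes of low genes come out too small, and a gene was counted as changed at a difference of 1 (2-fold). Summed FPKM ranged from 359947 to 613185, with JUN AA the highest, and rescaling to equal sums moved the median gene of JUN AA against control from -0.015 to -0.29 and that of JUN WT against JUN AA from 0.18 to 0.47. All 10 fibroblast markers were at 1 FPKM or more in each library, whereas the 7 epithelial and carcinoma markers summed to at most 2.50 FPKM, with CDH1 and ESRP1 listed at 0 in all 6 libraries and the sum in iCAFs at 1.44 FPKM. MDA-MB-231 cells were not sequenced here, so their own levels of the epithelial and carcinoma markers are unknown. Whether iCAFs held carcinoma RNA was therefore not tested. The 5 leukocyte markers summed to at most 2.17 FPKM. JUN measured 25.5 FPKM with the empty vector, 4543 FPKM with JUN WT and 291 FPKM with JUN AA. JUN WT and JUN AA thus differed 15.6-fold in JUN mRNA as well as in the phosphorylation sites, and these cannot be told apart. In the JNKi table, JUN measured 57.1 FPKM in untreated MRC5, 55.3 FPKM in iCAFs and 21.1 FPKM under JNKi. Its log2 difference was -0.05 in iCAFs against MRC5 and -1.35 with JNKi against iCAFs.

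The AP-1 heptamer TGACTCA, which reads TGAGTCA on the other strand, was searched around the start of the canonical transcript of each gene on GRCh37 (hg19), leaving out PLAT. Within 250 bases before to 50 after the start it was found in PLAUR and F3, and in 3.57% of 19856 protein-coding genes. Within 5000 bp F3 held 5 copies, PLAU, SERPINB2 and TFPI2 3 each, PLAUR and A2M 2 each, THBD 1 and SERPINE2 none, beside a median of 1 copy over all protein-coding genes and 5 or more in 2.37% of them. For 5 genes, the copy nearest to the start on its upstream side is shown with their flanks, because JUN was the factor introduced. Each runs 5′ to 3′ on the strand of its gene, the capitals mark the heptamer, and the centre is given in bp from the start.
PLAUR, chr19:44174489-44174518, - strand, centre at -183: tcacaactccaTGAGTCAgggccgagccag
F3, chr1:95007507-95007536, - strand, centre at -207: aatcactggggTGAGTCAtcccttgcaggg
PLAU, chr10:75669180-75669209, + strand, centre at -1695: ctatagcatcgcTGACTCAgtctgtcccct
TFPI2, chr7:93522409-93522438, - strand, centre at -2359: aagtttgaagtTGAGTCAacttttctcctg
A2M, chr12:9270638-9270667, - strand, centre at -2138: aatcctggtcaTGACTCAcagggcatgatg
Both PLAUR and F3 thus carry TGAGTCA within 250 bp of the start, and the PLAUR copy also lies in an exon of another PLAUR transcript, the F3 copy in an exon of the gene ENSG00000288736. The 250 bases before the F3 start, chr1:95007316-95007565 on the minus strand, have a GC content of 78.0%, and hold this copy near their 5′ end.
F3: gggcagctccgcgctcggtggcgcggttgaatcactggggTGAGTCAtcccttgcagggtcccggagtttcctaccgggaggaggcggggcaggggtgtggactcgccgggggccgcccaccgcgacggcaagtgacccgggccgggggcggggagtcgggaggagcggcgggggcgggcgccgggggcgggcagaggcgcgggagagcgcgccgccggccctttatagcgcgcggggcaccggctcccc
The same stretch before the SERPINB2 start, chr18:61554689-61554938 on the plus strand, has a GC content of 37.2% and no copy. Upstream of it, the nearest SERPINB2 copy is a TGAGTCA centred at -1569, nearer than those shown for PLAU, TFPI2 and A2M.
SERPINB2: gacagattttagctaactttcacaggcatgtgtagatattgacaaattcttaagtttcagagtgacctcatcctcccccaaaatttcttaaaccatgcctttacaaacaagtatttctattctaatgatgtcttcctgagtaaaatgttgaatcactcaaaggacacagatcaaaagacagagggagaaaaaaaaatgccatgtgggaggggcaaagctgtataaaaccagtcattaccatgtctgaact
A heptamer in these windows is a match of letters, and binding was not measured in these files.

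**Figure D1:**
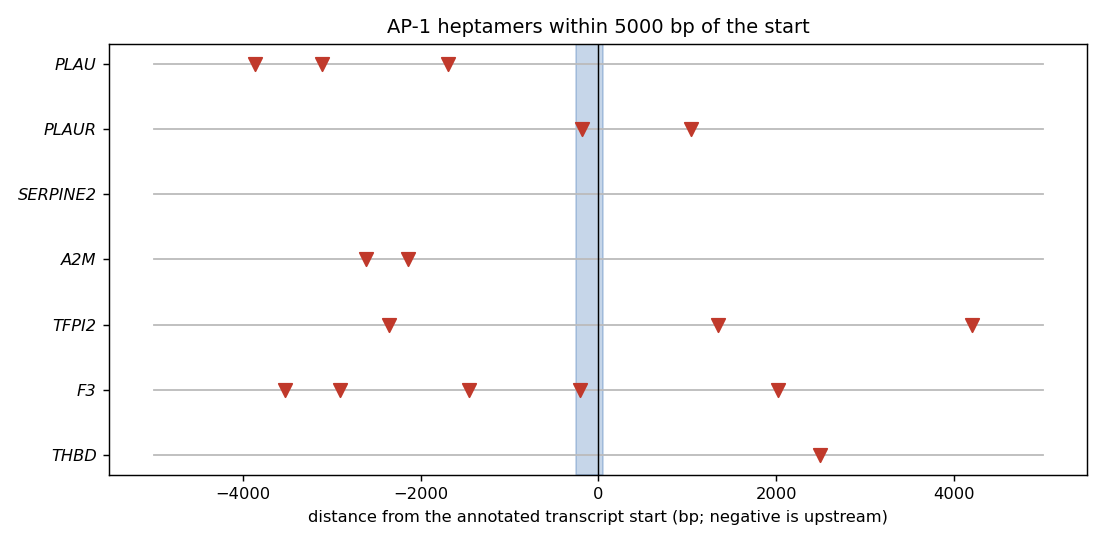
Position of each AP-1 heptamer (triangles) within 5000 bp of the transcript start, with distance from the start in bp on the x axis and 1 row for each of 7 genes. PLAT and SERPINB2 are not drawn. The shaded band runs from 250 bp before to 50 bp after the start and holds a heptamer in PLAUR at -183 and in F3 at -207.

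In JUN WT, the urokinase gene was lower and its receptor gene higher, while among the inhibitor genes SERPINB2 and TFPI2 were higher and SERPINE2 and A2M lower. PLAU measured 350 FPKM with the empty vector, 150 FPKM with JUN WT and 125 FPKM with JUN AA. It was lower with either form of JUN, with a log2 difference from the control of -1.22 with JUN WT and -1.48 with JUN AA. In bulk RNA, fewer cells that express a gene and less RNA of it per cell cannot be told apart, here and in each comparison that follows. In the annotation, 18.3% of the canonical PLAU exon bases are shared with C10orf55 on the opposite strand, and the strand setting of the counting is not given. PLAT measured 45.9 FPKM with the empty vector, 43.5 FPKM with JUN WT and 39.5 FPKM with JUN AA, with log2 differences of -0.08 and -0.21. PLAUR measured 40.04 FPKM with the empty vector, 89.0 FPKM with JUN WT and 43.0 FPKM with JUN AA. The log2 difference was 1.13 with JUN WT and 0.10 with JUN AA (-0.21 with FPKM rescaled), so that the JUN WT library stood apart. PLAU transcripts outnumbered those of PLAUR 8.75 to 1 in the control, 1.68 to 1 in JUN WT and 2.92 to 1 in JUN AA, a ratio that no scaling of the libraries changes.

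Among the inhibitors, SERPINB2, which encodes plasminogen activator inhibitor type 2, measured 21.6 FPKM with the empty vector, 374 FPKM with JUN WT and 226 FPKM with JUN AA. It was 17.4 times the control in JUN WT and 10.5 times in JUN AA, and stood in order of FPKM at position 2624 with the empty vector, 221 with JUN WT and 433 with JUN AA. On the annotation used, 28.7% of its canonical exon bases are shared with a joined gene model on the same strand, ENSG00000289724. SERPINE2, which encodes protease nexin-1, an inhibitor of thrombin, urokinase and plasmin, measured 77.6 FPKM with the empty vector, 42.5 FPKM with JUN WT and 19.5 FPKM with JUN AA. It was lowest in JUN AA, with a log2 difference of -1.94 from the control there and -0.85 in JUN WT. A2M measured 33.1 FPKM with the empty vector, 2.30 FPKM with JUN WT and 3.53 FPKM with JUN AA. Its level was 14.4 times lower in JUN WT and 9.38 times lower in JUN AA, and 3.77% of its canonical exon bases are shared with the antisense gene A2M-AS1. SERPINB2 and A2M therefore lay at opposite ends of the group, each far from the control with either form of JUN.

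TFPI2 measured 18.4 FPKM with the empty vector, 74.9 FPKM with JUN WT and 20.9 FPKM with JUN AA. Its log2 difference was 1.96 in JUN WT, exceeded by 57 of 10311 genes, and 0.17 in JUN AA (-0.13 with FPKM rescaled). F3 measured 59.6 FPKM with the empty vector, 141 FPKM with JUN WT and 68.3 FPKM with JUN AA, with log2 differences of 1.23 and 0.19 (the latter -0.11 with FPKM rescaled). TFPI2, F3 and PLAUR were thus the genes with a high JUN WT library beside a control and a JUN AA library close to each other. With trends in GC content and length removed, the log2 difference of F3 in JUN WT against control was 0.68. For SERPINB2 it went from 4.06 to 3.57 and for TFPI2 from 1.96 to 1.56. SERPINE2 was then at -1.38 and A2M at -3.69, both further below 0. Across genes the JUN WT difference followed GC content with a Spearman's rho of -0.39 over 9393 genes, which are not independent. For JUN AA against control rho was -0.32. THBD measured 0.11 FPKM with the empty vector, 0.28 FPKM with JUN WT and 0.081 FPKM with JUN AA, too low for a fold to be given.

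**Figure D2:**
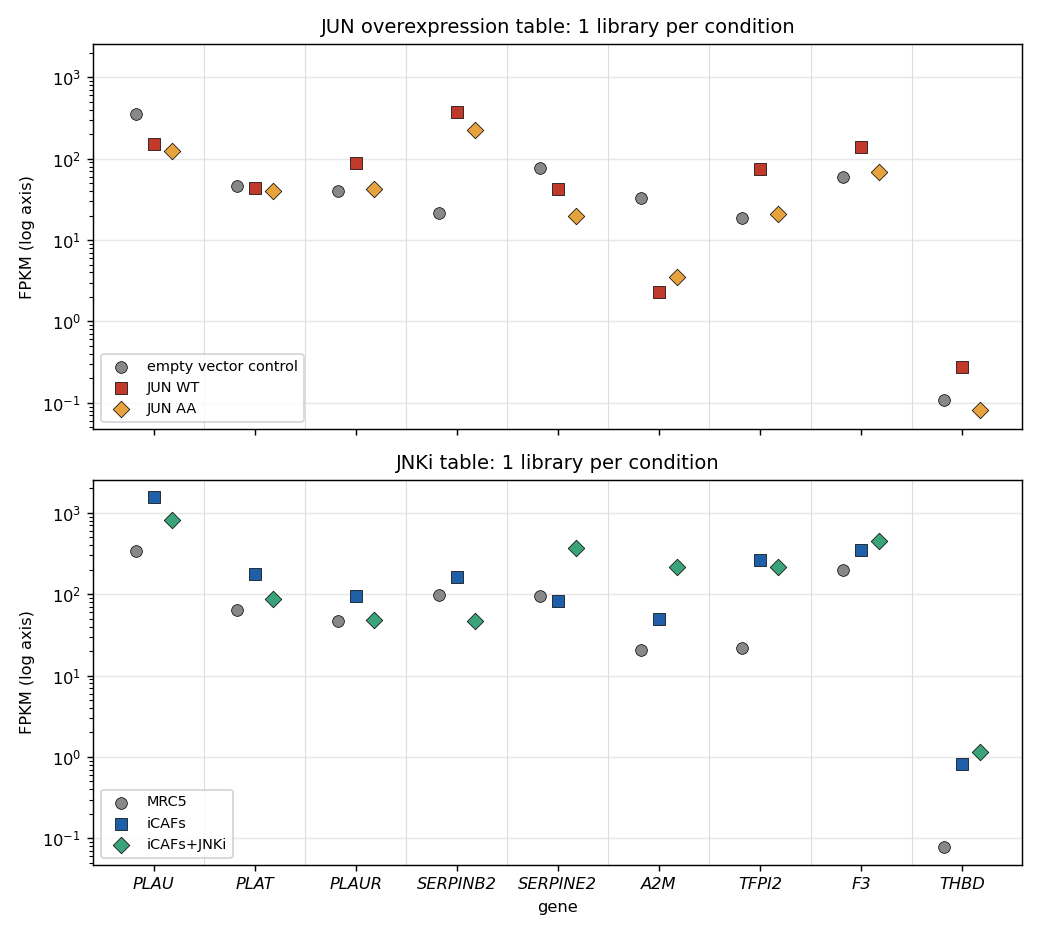
FPKM of the 9 genes (log axis) in the 3 libraries of the JUN overexpression table (upper panel) and of the JNKi table (lower panel), with 1 point per library and no error bars because each condition has 1 library. SERPINB2 went from 21.6 to 374 FPKM in JUN WT, PLAU reached 1563 FPKM in iCAFs, and THBD was near the bottom of both panels.

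Of the 9 genes, 8 had a mean of at least 1 FPKM over the libraries of each table and THBD did not. In JUN WT against control, 4 of the 8 were at least 2-fold higher (SERPINB2, PLAUR, TFPI2 and F3), beside 6.92% of all 10311 genes, and 2 were lower (PLAU and A2M), beside 3.39%. Nothing is read from these counts, because this comparison was used to choose the genes. The median over the 8 was 0.53, beside 0.15 over all genes. In JUN AA against the same control, 1 was higher (SERPINB2), beside 5.29% of all genes, and 3 were lower (SERPINE2, PLAU and A2M), beside 3.77%. The median over the 8 was -0.056, beside -0.015 over all genes. Nor is anything read from the JUN AA counts, because the genes were chosen with earlier results of these data known.

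Set directly against JUN AA, JUN WT had 4 of the 8 genes at least 2-fold higher, beside 6.65% of all genes, and 0 lower, beside 5.61%. These were TFPI2 with a log2 difference of 1.80, SERPINE2 with 1.08, PLAUR and F3 with 1.03 each. The median over the 8 genes was 0.88, beside 0.18 over all genes. Nothing is read from this count or median, because the JUN WT library was also used to choose the genes. Only TFPI2 remained past 2-fold after the differences were centred on the median gene, at 1.61, whereas with FPKM rescaled to the same sum SERPINB2 passed as well, at 1.03. PLAU differed by 0.26 and PLAT by 0.14 between the JUN libraries, signs that turned with trends in GC and length removed, and the A2M difference was -0.46.

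Conditioned medium was followed by a different picture, in which both activator genes were higher. PLAU measured 339 FPKM in untreated MRC5, 1563 FPKM in iCAFs and 815 FPKM under JNKi. The log2 difference of iCAFs from MRC5 was 2.20 and that of iCAFs+JNKi from iCAFs -0.94, so the level with JNKi stayed 2.40 times that of MRC5. In iCAFs PLAU stood at position 15 of all genes in order of FPKM. PLAT measured 64.5 FPKM in untreated MRC5, 175 FPKM in iCAFs and 88.1 FPKM under JNKi. It was 2.72 times higher in iCAFs than in MRC5 and 1.99 times lower with JNKi than in iCAFs. PLAUR measured 46.6 FPKM in untreated MRC5, 94.6 FPKM in iCAFs and 48.5 FPKM under JNKi. Its iCAFs library stood alone, with MRC5 and iCAFs+JNKi only 0.056 apart on the log2 scale.

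The inhibitor genes parted ways with JNKi. SERPINB2 measured 97.1 FPKM in untreated MRC5, 161 FPKM in iCAFs and 47.0 FPKM under JNKi. Its log2 difference was 0.72 in iCAFs against MRC5 and -1.76 with JNKi against iCAFs, which left it lowest in the inhibited library. SERPINE2 measured 95.5 FPKM in untreated MRC5, 82.0 FPKM in iCAFs and 374 FPKM under JNKi. The inhibited library alone was high, 4.56 times iCAFs, and 35 of 11780 genes had a larger positive difference. A2M measured 20.5 FPKM in untreated MRC5, 50.03 FPKM in iCAFs and 218 FPKM under JNKi. It was 2.44 times higher in iCAFs than in MRC5 and a further 4.36 times higher with JNKi, for which 38 genes had a larger difference.

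TFPI2 measured 21.9 FPKM in untreated MRC5, 266 FPKM in iCAFs and 214 FPKM under JNKi. It was 12.1 times higher in iCAFs, where 15 of 11780 genes had a larger difference, and its log2 difference with JNKi against iCAFs was -0.31. F3 measured 200 FPKM in untreated MRC5, 348 FPKM in iCAFs and 446 FPKM under JNKi. It was highest in the inhibited library, where it stood 0.36 above iCAFs and 1.15 above MRC5 on the log2 scale, and iCAFs stood 0.80 above MRC5. THBD measured 0.078 FPKM in untreated MRC5, 0.81 FPKM in iCAFs and 1.16 FPKM under JNKi, with a mean below 1 FPKM. THBD is also expressed by endothelium, and the 5 endothelial markers summed to 2.66, 3.84 and 10.8 FPKM in these libraries, nearly all of it TEK at 2.52, 3.78 and 10.4 FPKM, while CDH5 was listed at 0 and PECAM1 was at most 0.025 FPKM.

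**Figure D3:**
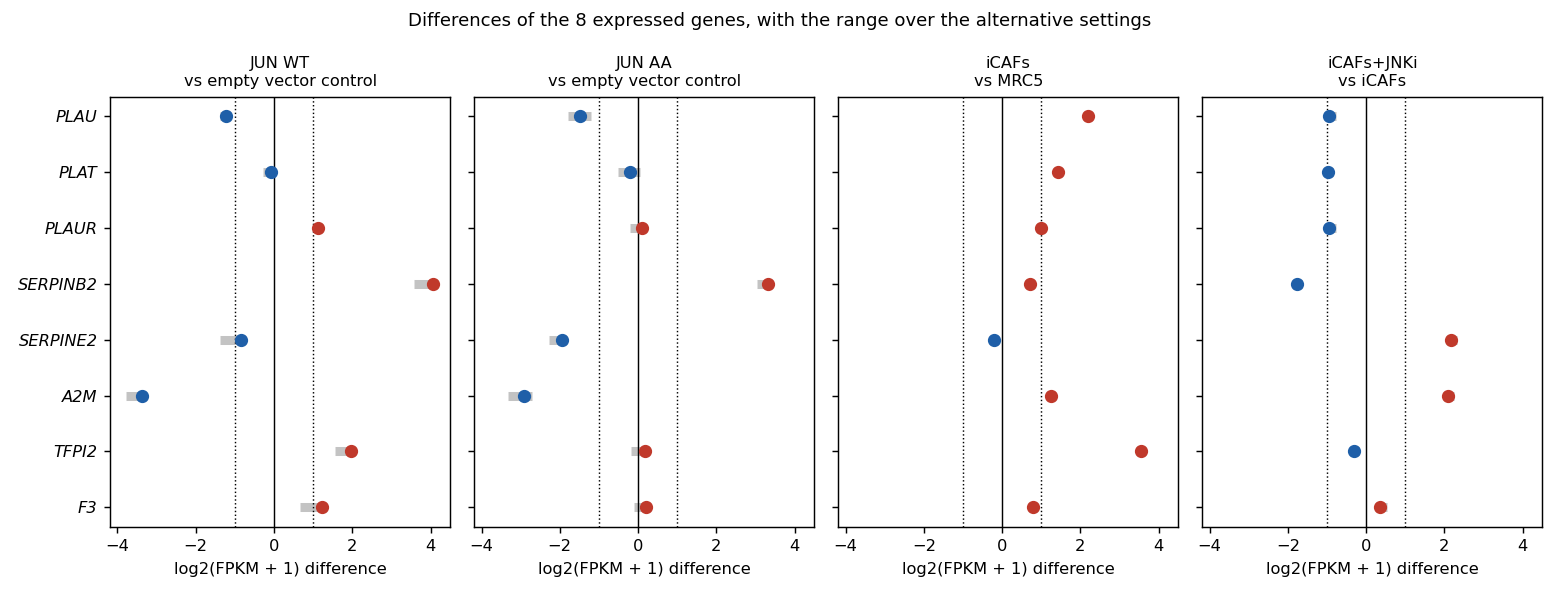
log2(FPKM + 1) differences of the 8 expressed genes in 4 comparisons (points, red above 0 and blue below), with grey bars for the range over the alternative settings and dotted lines at 2-fold. TFPI2 was at 3.54 in iCAFs against MRC5, and SERPINE2 was at 2.17 in iCAFs+JNKi against iCAFs with A2M close to it.

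In iCAFs against MRC5, 5 of the 8 genes were at least 2-fold higher (PLAU, PLAUR, PLAT, A2M and TFPI2), beside 1.94% of 11780 genes, and 0 were lower, beside 1.71%. PLAUR passed narrowly, at 1.01. The median over the 8 was 1.13, beside -0.061 over all genes. In iCAFs+JNKi against iCAFs, 2 were at least 2-fold higher (SERPINE2 and A2M), beside 2.25% of all genes, and 1 was lower (SERPINB2), beside 1.97%. PLAU, PLAUR and PLAT lay just inside 2-fold, at -0.94, -0.95 and -0.99. The median over the 8 was -0.62, beside -0.099 over all genes. In iCAFs+JNKi against MRC5, 5 were higher (SERPINE2, PLAU, A2M, TFPI2 and F3), beside 3.28%, and SERPINB2 was lower, beside 3.53%, although it was within 2-fold under 3 other settings. The comparisons of each table share libraries, and their values are given side by side only. Because the genes were chosen with earlier results of these data known, nothing is read from these counts and medians.

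The transcripts of both activators, and of the serpins SERPINB2 and SERPINE2, were also summed within each library. Other inhibitors of the activators are not in this sum. PLAU and PLAT together were 3.99 times the sum of both serpins with the empty vector, 0.46 times with JUN WT and 0.67 times with JUN AA. Transcripts of these serpins thus exceeded those of the activators in both JUN libraries and not in their control. SERPINB2 made up 21.7% of the serpin sum with the empty vector, 89.8% with JUN WT and 92.0% with JUN AA. In the other table, activators were 2.096 times the serpins in MRC5, 7.15 times in iCAFs and 2.15 times in iCAFs+JNKi. The activator sum was 1739 FPKM in iCAFs and 903 FPKM under JNKi, and the serpin sum went from 243 to 421 FPKM. SERPINE2 made up 33.7% of that sum in iCAFs and 88.8% with JNKi, with SERPINB2 the rest. These are ratios of transcripts within a library, and protein and protease activity were not measured in these files.

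**Figure D4:**
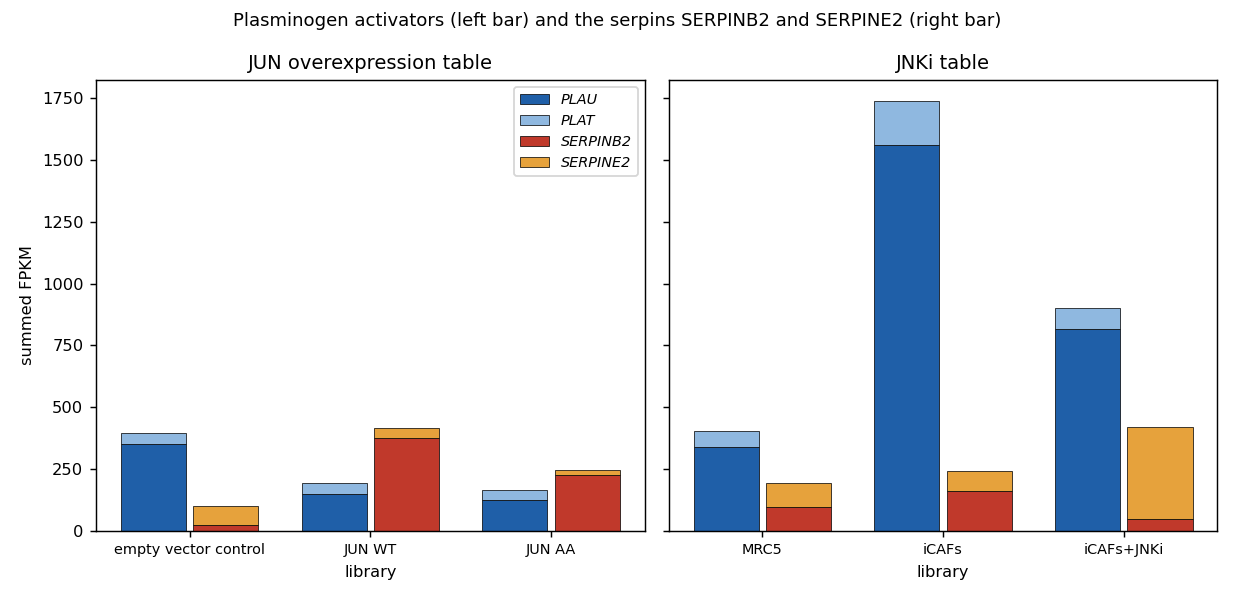
Summed FPKM of the activators PLAU and PLAT (left bar of each pair) and of the serpins SERPINB2 and SERPINE2 (right bar) in each library, with 1 library per condition. The right bar is the taller in JUN WT, at 416.5 against 193 FPKM, and the left bar in iCAFs, at 1739 against 243 FPKM.

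Other genes of the plasminogen system were read from a list of 22 genes, of which 11 passed the filter in each table. PLG, which encodes plasminogen itself, was listed at 0 in all 6 libraries. Counts in this and the other lists stand beside the shares of all genes given above, from 1.71% to 6.92% by comparison. Nothing is read from these counts. In JUN WT against control, 1 gene was at least 2-fold higher and 1 lower. ANXA2, which encodes a plasminogen receptor, was at 835 FPKM in the control and 1716 FPKM in JUN WT, and MRC2, a collagen receptor associated with PLAUR, was at 131 and 59.8 FPKM. In JUN AA, 3 of the 11 were higher (ANXA2 at 1672 FPKM, CLEC3B and SERPINI1) and 2 lower (MRC2 at 45.2 FPKM and LRP1). SERPINI1 was low, at 1.81 FPKM in the control and 5.2 FPKM in JUN AA. LRP1, which encodes an endocytic receptor that clears activator and inhibitor complexes, was at 37.4 FPKM in the control and 17.01 FPKM in JUN AA. In JUN WT against JUN AA, CLEC3B, which encodes the plasminogen-binding protein tetranectin, was the 1 gene lower, at 4.23 against 19.4 FPKM. In iCAFs against MRC5, THBS1 was the 1 gene higher and CLEC3B the 1 lower, at 2.27 FPKM in MRC5 and 0.55 FPKM in iCAFs. THBS1 measured 274 FPKM in untreated MRC5, 621 FPKM in iCAFs and 1527 FPKM under JNKi, and it was the 1 gene of the list at least 2-fold higher with JNKi, where 0 were lower. In iCAFs+JNKi against MRC5, 2 were higher (THBS1 and MRC2) and 3 lower (S100A10, ANXA2 and CLEC3B), with S100A10, which encodes the partner of annexin A2, at 131 FPKM in MRC5 and 57.2 FPKM with JNKi.

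A list of 28 coagulation genes and their receptors had 10 genes at a mean of 1 FPKM or more with JUN overexpression and 11 in the JNKi experiment. TGM2, which encodes a protein cross-linking transglutaminase, was the 1 gene at least 2-fold lower with either form of JUN, and 0 were higher. It measured 127 FPKM with the empty vector, 35.2 FPKM with JUN WT and 48.9 FPKM with JUN AA. In the JNKi table it measured 136 FPKM in untreated MRC5, 573 FPKM in iCAFs and 633 FPKM under JNKi, the 1 gene higher in iCAFs. PROS1, which encodes the anticoagulant protein S, was at 15.5 FPKM in MRC5 and 6.11 FPKM in iCAFs, and with F2RL2, a thrombin receptor gene, made up the 2 lower genes. ANXA5, the gene of annexin A5, was the 1 higher in JUN WT than in JUN AA, at 776 against 380.2 FPKM. With JNKi, 0 genes of this list were 2-fold higher or lower than in iCAFs. TFPI, which encodes the main inhibitor of tissue factor, ranged from 8.05 to 14.4 FPKM in the JUN libraries and their control, with the lowest value in JUN WT.

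Genes of the closest pattern were found by the distance between log2(FPKM + 1) profiles over the 6 libraries, centred within each table, among 10020 genes past the filter in both. For PLAUR these were BTN2A2 at 0.16, VEGFC at 0.28 and NFKB1 at 0.29, beside a median distance of 1.22 over all genes. VEGFC, the gene of a growth factor for lymphatic vessels, was at 12.3, 32.5 and 12.2 FPKM in the control, JUN WT and JUN AA. In MRC5, iCAFs and iCAFs+JNKi it was at 35.99, 79.5 and 34.2 FPKM. Like PLAUR it was high in JUN WT and in iCAFs alone, which follows from its choice by this distance. For TFPI2 the closest was CXCL3, a neutrophil chemokine gene, at 0.54, then MMP3 at 1.25 and INHBA at 1.30, beside a median of 3.24. For SERPINE2 they were ADAMTS7 at 0.40, C1R at 0.49 and HSPA2 at 0.51, beside 2.33. ADAMTS7, which encodes a matrix metalloprotease, went from 3.70 FPKM in iCAFs to 18.1 FPKM under JNKi. For A2M the closest were FMOD, which encodes the collagen-binding fibromodulin, at 1.03, the Notch ligand gene DLL4 at 1.04 and HNRNPUL2-BSCL2, a readthrough transcript whose reads also belong to its component genes, at 1.26, beside 3.71. For SERPINB2 the closest was MMP1, which encodes interstitial collagenase, at 1.27, beside a median of 3.24. MMP1 was at 31.1, 414 and 155 FPKM in the control, JUN WT and JUN AA. KTI12 at 1.55 and LCE2C, of a family of similar sequence, at 1.61 followed. For PLAU they were PTGES, which encodes a prostaglandin E synthase, at 0.53, SMN2, which shares reads with its near-identical copy SMN1, at 0.72 and FAM167A at 0.79, beside 2.08. For PLAT they were TNIP1 at 0.34, OGFRL1 at 0.39 and the neurotrophic factor gene GDNF at 0.43, beside 1.22. For F3 they were SERF1A, which also has a near-identical copy, at 0.15, B4GALT4 at 0.26 and the aminopeptidase gene ANPEP at 0.32, beside 1.36.

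**Figure D5:**
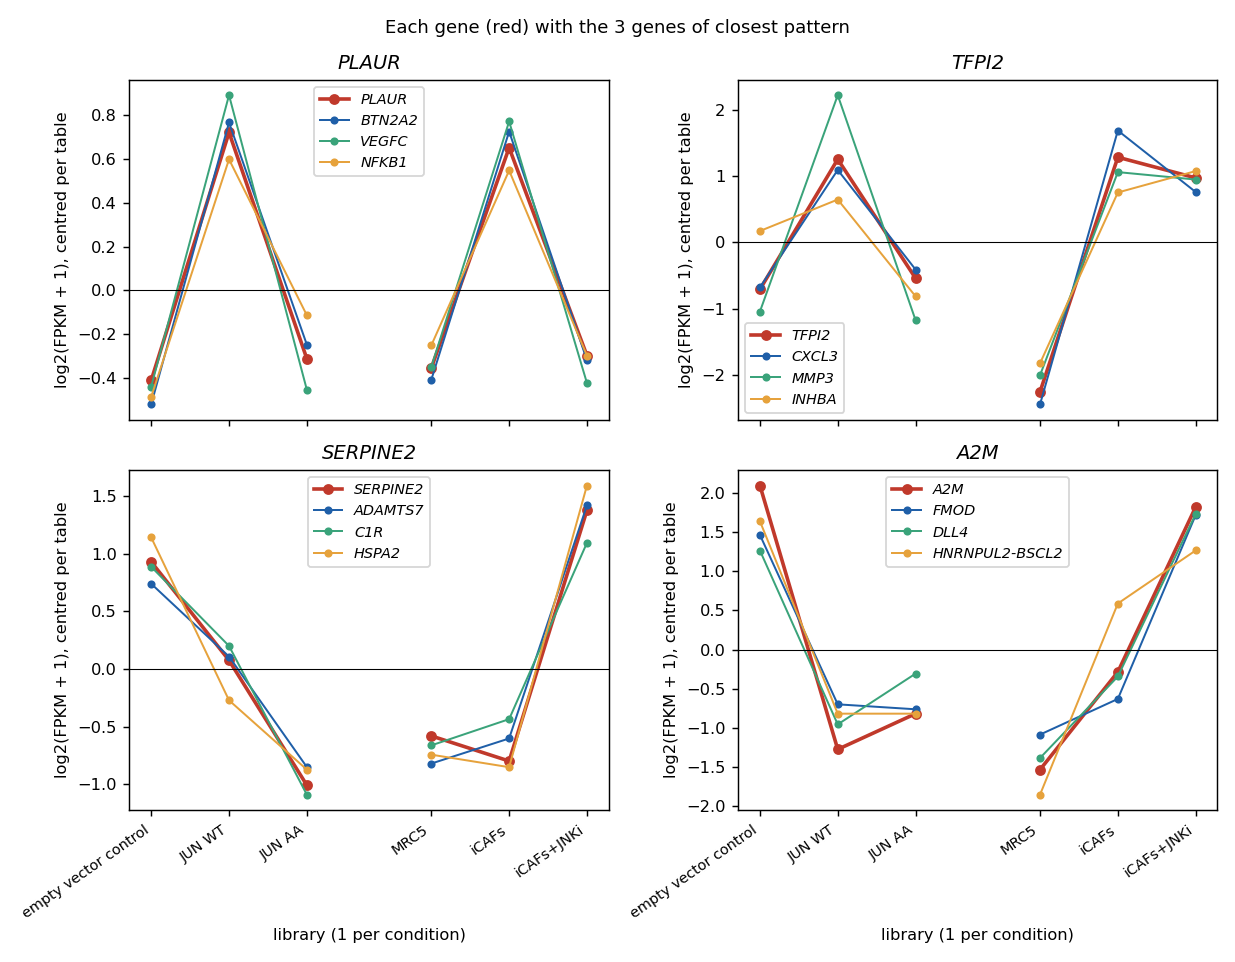
log2(FPKM + 1) centred on the mean of each table for PLAUR, TFPI2, SERPINE2 and A2M (red) and their 3 closest genes, over the 3 libraries of each table, with lines joining libraries of a table only. PLAUR, BTN2A2, VEGFC and NFKB1 peak in JUN WT and in iCAFs, and SERPINE2 and its neighbours peak in iCAFs+JNKi.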

How the data were processed

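RNA-seq libraries came from 3 conditions of JUN overexpression and 3 of the JNKi experiment, with 1 library each. The authors mapped reads to hg19 with HISAT2 2.1.0 at default parameters and deposited FPKM per gene from StringTie 2.1.1, per the paper's methods and the submitters' processing notes. The annotation, strand setting and depth are not given in the sources used here, and neither intervals nor detection limits can be computed.

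Each table has 25370 rows and 25368 symbols, and where rows shared a symbol (4 rows), that of the larger mean was used. From the FPKM, log2(FPKM + 1) differences were computed within a table for 6 comparisons, with Python 3.11.15, numpy 2.4.6, pandas 2.3.3, scipy 1.17.1 and matplotlib 3.10.9. Counts used genes whose mean over the 3 libraries of a table reached 1 FPKM. No test between conditions was made. The procedure was tested on simulated data.

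The genes and lists were chosen with earlier results of these data known. Named beside the 9 genes are JUN, the 3 closest genes of a pattern, and genes of the 3 wider lists at least 2-fold changed, at most 4 a comparison. PLG, TFPI, TEK and the other markers, and the values of named genes in further comparisons, were added after the values were seen. Starts, exons and sequences came from GRCh37 with GENCODE release 44, which gave GC content for 91.1% and 90.4% of the genes past the filter.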

Additional observations from a re-analysis of the deposited data

How the results depend on the processing

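Each difference of the 9 genes was recomputed with a pseudocount of 0.1 FPKM, FPKM rescaled to a sum of 1000000, centring on the median gene, rows that share a symbol summed, and removal of GC and length trends in 20 bins, and counts also with no filter and with a mean of at least 5 FPKM. A move of over 0.25 on the log2 scale, a limit chosen because there are no replicates, was seen in 17 of 54 values with rescaling, 16 of 48 with trends removed and 6 of 54 with the smaller pseudocount. It was seen in 0 of 54 values with centring and with summed rows. No difference past 2-fold changed sign under these settings. The sign of differences near 0 did, with rescaling for PLAUR, TFPI2 and F3 in JUN AA against control, at -0.21, -0.13 and -0.11. It also did for PLAT in JUN WT against JUN AA with centring and with trends removed, and, with trends removed, for PLAU in the same comparison and for PLAT and TFPI2 in JUN AA against control.

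For JUN WT above JUN AA, the count of 4 genes past 2-fold was 1 with centring and 1 with trends removed. SERPINB2, the 1 gene at least 2-fold lower in iCAFs+JNKi than in MRC5, was not past 2-fold with rescaling, centring or trends removed, which left 0. For JUN WT above control, the count of 4 was 3 with centring, where PLAUR was at 0.98, and 3 with trends removed, where F3 was at 0.68, while SERPINE2 became a lower gene, just past 2-fold with centring and at -1.38 with trends removed. For the share of all genes, the 6.92% higher in JUN WT than in control was 11.9% with the smaller pseudocount, 4.23% with centring and 3.45% with trends removed. The 3.77% lower in JUN AA was 9.28% with rescaling, and the 5.29% higher was 3.28%. The 6.65% higher in JUN WT than in JUN AA was 17.2% with rescaling and 3.99% with centring. Without a filter the shares fell by their larger denominator, to between 0.891% and 3.0%. Among genes changed 2-fold in JUN WT against control, 67.1% were higher, and 45.5% after centring. In JUN AA the 58.4% higher became 26.1% with rescaling, which moved the median gene to -0.29. In JUN WT against JUN AA the 54.3% higher became 82.9% with rescaling, 33.3% with centring and 43.3% with trends removed. With JNKi the 53.3% higher against iCAFs became 64.0% with centring, and the 48.1% higher against MRC5 59.3% with rescaling and 65.9% with centring.

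No paired analysis was possible because each condition has 1 library and no result comes from a test. The depth is unknown, so THBD cannot be compared between libraries.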

Other observations

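Other serpins and relatives of A2M were read from a list of 27 genes, of which 26 were in the tables and 8 had a mean of 1 FPKM or more with JUN overexpression and 9 in the JNKi experiment. In JUN WT and in JUN AA against control, 0 of the 8 were at least 2-fold higher or lower. SERPINB8 was the 1 gene of the list higher in JUN WT than in JUN AA, at 7.69 against 2.42 FPKM. SERPINB7, a member of the same clade as SERPINB2, measured 33.5 FPKM in untreated MRC5, 8.81 FPKM in iCAFs and 3.48 FPKM under JNKi, the opposite order to SERPINE2 and A2M in iCAFs and iCAFs+JNKi. SERPINA9 was listed at 0 in MRC5 and reached 3.77 FPKM in iCAFs, against 0.67 FPKM under JNKi. SERPINH1, which encodes a collagen chaperone and inhibits no protease, measured 120 FPKM in untreated MRC5, 141 FPKM in iCAFs and 256 FPKM under JNKi.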
